A study of Drosophila melanogaster with 50 samples.

Results

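The genes described here encode the nuclear subunits of the 5 complexes of mitochondrial oxidative phosphorylation. They were chosen by name, as the probe sets of the array whose only gene symbol marks a subunit of complex I (ND-), complex II (Sdh), complex III (UQCR- and Cyt-c1), complex IV (COX) or ATP synthase (ATPsyn). Paralogues whose symbol ends in L were left out, and a gene with several probe sets was followed on its brightest one. The rule gave 52 genes, 27 of complex I, 3 of complex II, 5 of complex III, 7 of complex IV and 10 of ATP synthase, among 11982 genes with a probe set of their own. The rule used names and no values, but it was set with earlier results of these data known. Mean intensity over the arrays chose the probe set for the 6 genes that had several, whose other probe sets are described last. The genes are spread over chromosome arms 2L (11), 2R (8), 3L (11), 3R (11), 4 (1) and X (10). SdhA and UQCR-C1, a subunit each of complexes II and III, were not on a probe set that met the rule and were not analysed here.

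Oxidative phosphorylation is the last stage of respiration. Complexes I and II take electrons from NADH and succinate, complexes III and IV pass them on to oxygen, and ATP synthase uses the proton gradient built by complexes I, III and IV to make ATP. Complexes I, III, IV and ATP synthase also hold subunits encoded in the mitochondrial genome, which are not among the genes described here. In adult flies the tissue best known for its mass of mitochondria is the indirect flight muscle.

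The data were 50 Affymetrix Drosophila 2.0 arrays of whole adult flies of the wild-type strain Oregon R. The labels name no transgene or mutation in any group. Exposure in a facility that alters gravity lasted 3 to 5 days, and further arrays came from control flies kept outside it. The random positioning machine (RPM) turns its samples so that the direction of gravity averages out. It held flies of 5 d at 14C, namely 4 arrays of flies labelled males at simulated 0g with 3 arrays kept outside at 1g, and 3 arrays of flies labelled females at 0g with 3 outside at 1g. The magnetic levitator held females of 5 d at 14C. There were 3 arrays for each of 0g*, 1g* and 2g*, where the star marks the strong field, and their controls stood outside the field at 14C (2 arrays) or at 24C (3 arrays). Magnet runs marked 80 h gave 2 arrays of 0g* and 2 of 1g* at 14C, with 3 from outside at 24C, all of females of 5 d. The large diameter centrifuge (LDC) held females at 22C. At 20 d and again at 5 d, 4 arrays came from 2g, 2 from a control that rotated without added load (1g-rot), and 2 from outside at 1g. Replicates are named biological in the titles, but whether they grew in separate cultures is not said, so the p-values measure the spread between these arrays.

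Values are log2 intensities, so that a difference of 1 is a doubling. A level belongs to its own probe set and is not compared between genes. A gene counted as called at an adjusted p under 0.05 in limma with Benjamini-Hochberg adjustment over all 18769 probe sets tested, and "±" after a difference is its SE. Every group mean of the 52 genes lay above background. That level was set on each array by 50 control probe sets for plant genes, at their 95th percentile, and ran from 3.86 to 4.49.

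Several facts about the arrays touch the results. Transcripts made in 1 sex ran opposite to the labels in the RPM series: the medians of 15 accessory gland genes, which serve the male, were 3.73 to 6.74 on arrays labelled males and 11.02 to 11.78 on arrays labelled females, and those of 12 eggshell genes were 10.19 to 12.26 on arrays labelled males and 4.82 to 8.22 on arrays labelled females. The groups are therefore called by their labels only. Transcripts of both sexes stood on 6 arrays. In the RPM these were replicate 1 of labelled males at 0g, replicates 2 and 3 of labelled females at 0g and replicate 3 of labelled females at 1g, and the magnet gave 1 at 1g* (replicate 1) and 1 in the 80 h runs (1g* replicate 1). In the 80 h magnet runs the difference between the 3' and 5' probe sets of the RNA quality controls was wide, 1.94 to 2.93 for GAPDH and 2.43 to 3.34 for eIF-4a, against 1.13 to 2.05 and 0.62 to 1.88 on the other arrays. All 16 measured flight muscle and sarcomere markers stood above background on every array. A 24C array of the magnet series (replicate 1) is called 14C in 1 of its labels and was kept with the 24C group of its title.

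Across the whole series the levels of most subunit genes varied together. The median of the 52 genes on an array ran between 10.46 and 12.01. Among groups the lowest means lay in the 20 d centrifuge flies for 20 genes and in the 80 h magnet runs for 30, and the highest means in the RPM flies labelled females for 28 and in the 5 d centrifuge flies at 1g outside for 18. The range of a gene's 18 group means had a median of 1.28, beside a pooled SD within groups of 0.16 at the median. As a description, the group means of a gene correlated with the median of the other genes with an r over 0.8 for 36 of the 52 and over 0.9 for 26 (18 groups, which share facilities and array scaling). The plot of array medians shows these levels.

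**Figure D1:**
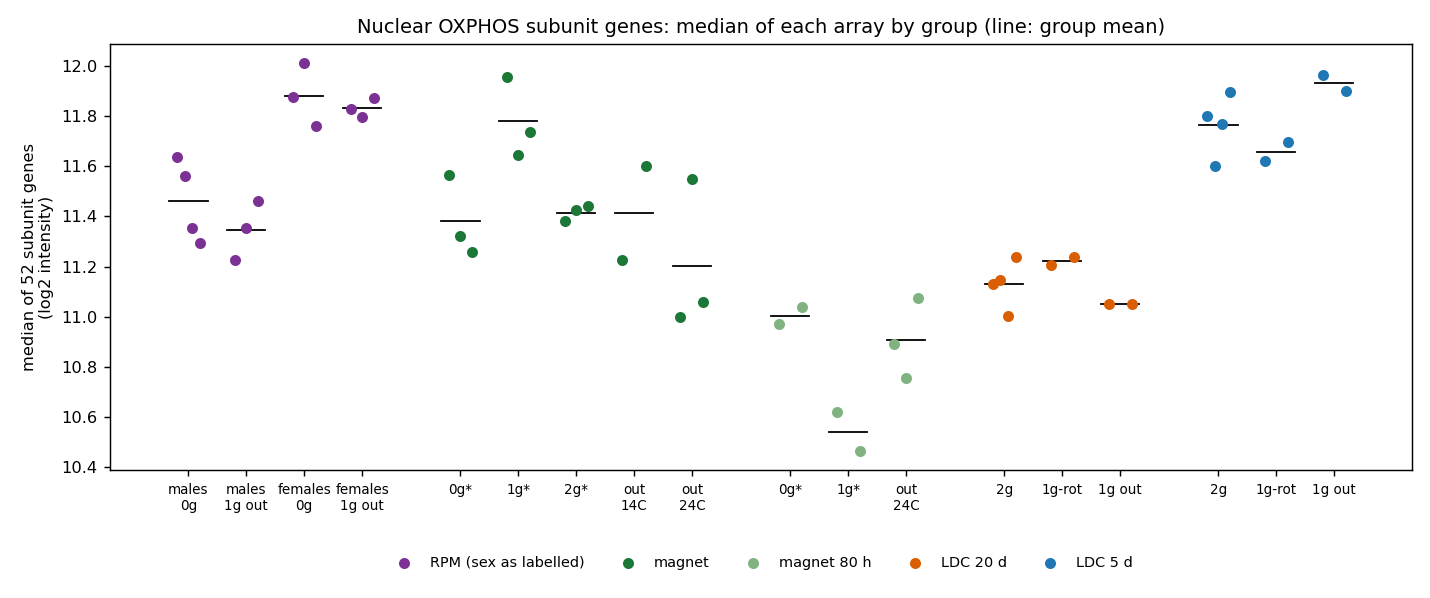
Median log2 intensity of the 52 subunit genes on each array (points) by group, with the group mean as a line; colours mark the facility and, in the centrifuge, the age. The 20 d centrifuge arrays lie between 11.00 and 11.24 and the 5 d arrays between 11.60 and 11.96, and the 80 h magnet arrays reach lowest, lying between 10.46 and 11.08.

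The genes with the widest range over groups were ND-B8 (3.59), ND-75 (1.97) and ND-B17.2 (1.96), all of complex I. COX7A, a small subunit of complex IV, had the narrowest: its 18 group means lay between 11.88 and 12.12, a range of 0.24 beside a pooled SD of 0.10. ND-B16.6 of complex I (0.66) and COX7B of complex IV (0.71) came next. The least like the others were ND-B12 of complex I, whose group means ran against the median of the other genes (r = -0.55), UQCR-11 of complex III (r = 0.34) and COX7B (r = 0.38). ND-B12 had its lowest group mean, 5.72, in flies labelled females at 0g, where many other subunit genes were at their highest, and its highest, 6.62, at 0g* in the 80 h magnet runs.

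Among all comparisons within a facility, age in the centrifuge gave the largest median differences of the subunit genes. Flies of 20 d had less of nearly every subunit transcript than flies of 5 d, in each of the conditions that the centrifuge held, and in all 5 complexes. At 2g 49 of the 52 genes fell, at 1g-rot 40 and at 1g outside 47, and none rose. The median differences were -0.65, -0.58 and -0.85, or 36.3%, 33.3% and 44.5% less. Of all probe sets, 8.86% were called lower at 2g, 10.2% at 1g-rot and 6.14% at 1g outside, 10.0%, 8.22% and 4.98% were called higher in the same order, and their median differences were -0.02, 0.02 and 0.01. At most 6.14% of all probe sets can have fallen in all 3 comparisons, and the share that did was not counted. The 3 comparisons share no arrays. Altogether 40 genes fell in all of them, 7 in 2 (COX4, ND-15, ND-20, ND-39, ND-51, ND-ASHI and ND-B14), 2 in 1 (ND-B14.5A and ND-B16.6), and 3 in none (COX7A, ND-B12 and UQCR-11). At 1g-rot, where groups held 2 arrays each, the count was 21 when the spread was taken from those 4 arrays alone.

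**Figure D2:**
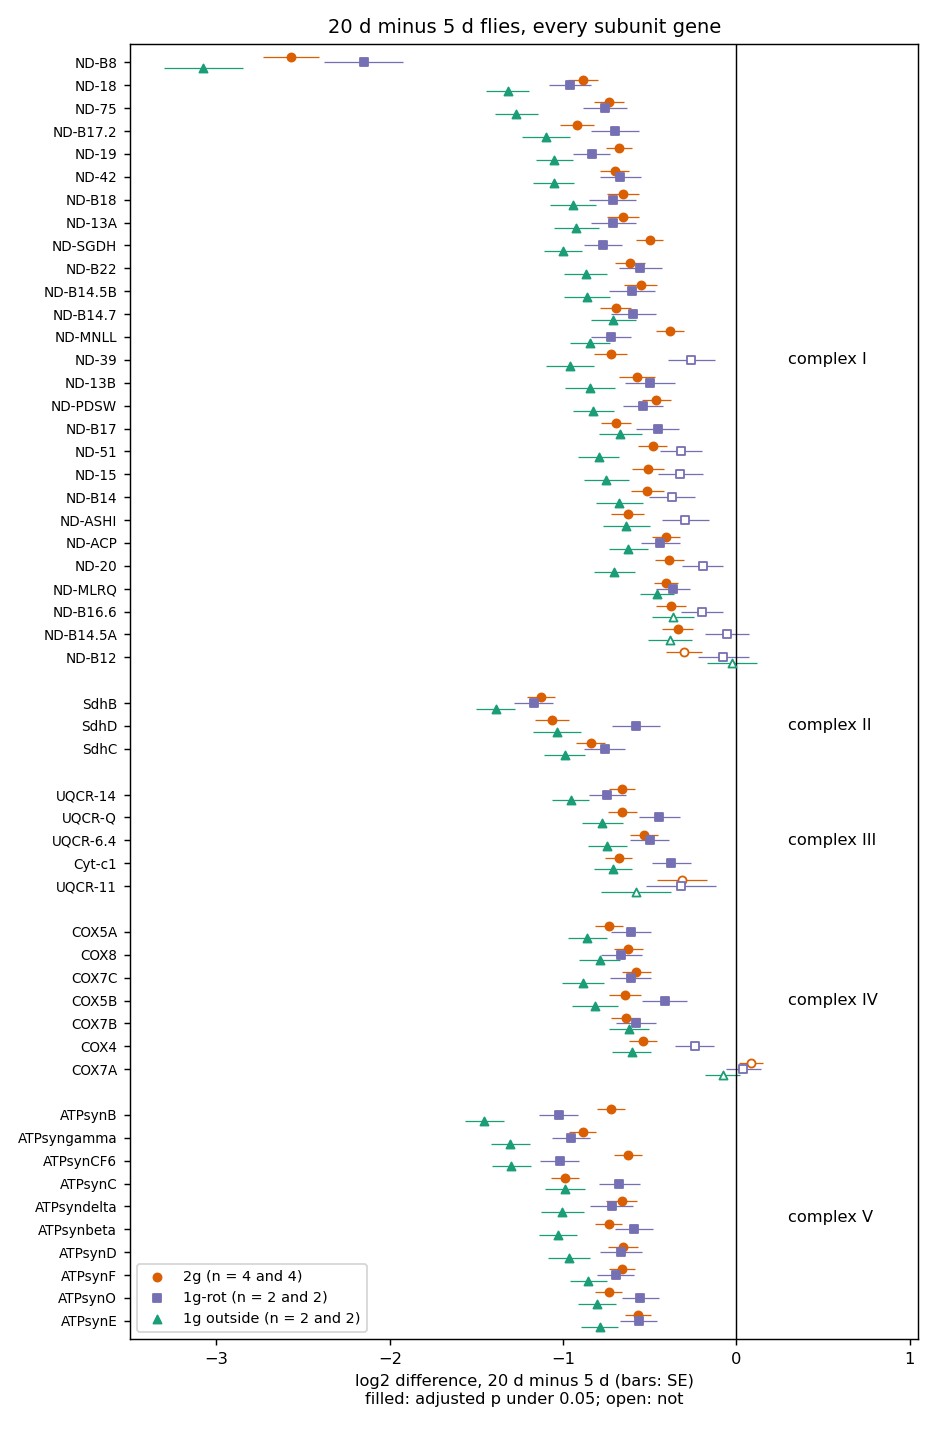
Log2 difference of each of the 52 subunit genes, 20 d minus 5 d, at 2g (circles, 4 and 4 arrays), 1g-rot (squares, 2 and 2) and 1g outside (triangles, 2 and 2), by complex, with SE bars; filled symbols are called at an adjusted p under 0.05. ND-B8 lies farthest from 0 in every condition (-2.57, -2.15 and -3.08), and COX7A lies beside 0 (0.08, 0.04 and -0.08).

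In complex I, which takes electrons from NADH, 26 of 27 genes fell at 2g, 18 at 1g-rot and 24 at 1g outside, with medians of -0.58, -0.54 and -0.85. ND-B8, an accessory subunit on arm 2L, had the largest fall. It stood at 5.30, 4.97, 5.28 and 4.55 in 20 d flies at 2g, against 7.73, 7.26, 7.77 and 7.62 in 5 d flies. At 1g-rot it stood at 5.18 and 5.34 at 20 d, against 7.48 and 7.34 at 5 d, and at 1g outside at 4.88 and 5.01 at 20 d, against 8.25 and 7.79 at 5 d. The highest array of 20 d (5.34) lay well below the lowest of 5 d (7.26). The differences were -2.57 ± 0.16, -2.15 ± 0.23 and -3.08 ± 0.23 (adjusted p = 1.87e-08, 1.42e-05 and 4.35e-07), a level 5.94-fold, 4.44-fold and 8.43-fold lower.

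ND-75, the largest core subunit of complex I and a carrier of iron-sulphur clusters, also separated the ages fully. Its levels were 9.62, 9.71, 9.49 and 9.80 at 20 d and 2g, against 10.46, 10.26, 10.36 and 10.48 at 5 d. Outside the centrifuge they were 9.29 and 9.21 at 20 d, against 10.57 and 10.47 at 5 d. The fall was -0.74 ± 0.09 at 2g, -0.76 ± 0.13 at 1g-rot and -1.27 ± 0.13 at 1g outside. ND-18, an accessory subunit of the matrix arm, fell by 0.88, 0.96 and 1.32 in the same order, and ND-B17.2, another accessory subunit, by 0.92, 0.70 and 1.10.

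ND-B12 and ND-B16.6 of complex I stood closer to 0. ND-B12 was at 5.88, 5.86, 6.05 and 6.20 at 20 d and 2g, against 6.40, 6.18, 6.31 and 6.31 at 5 d, and the ages overlapped on 1 array each. It differed by -0.30 ± 0.10 at 2g (adjusted p = 0.0513), -0.08 ± 0.14 at 1g-rot and -0.02 ± 0.14 at 1g outside, and at 2g it was called under some alternatives, centring among them. ND-B16.6 fell by 0.38 ± 0.09 at 2g and did not pass at 1g-rot or 1g outside.

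Complex II, succinate dehydrogenase, links respiration to the citric acid cycle, and its 3 measured genes fell in all conditions, with medians of -1.06 at 2g, -0.76 at 1g-rot and -1.04 at 1g outside. SdhB, the iron-sulphur subunit, was very even among replicates. It stood at 10.30, 10.29, 10.17 and 10.37 at 20 d and 2g, against 11.41, 11.40, 11.44 and 11.39 at 5 d, and at 10.10 and 9.94 at 20 d outside, against 11.41 and 11.41 at 5 d. At 1g-rot it was 10.20 and 9.99 at 20 d, against 11.18 and 11.35 at 5 d. The groups lay far apart in each condition, and SdhB fell by 1.13 ± 0.08 at 2g, 1.17 ± 0.11 at 1g-rot and 1.39 ± 0.11 at 1g outside, or 2.18-fold, 2.25-fold and 2.62-fold. The membrane anchors SdhC (-0.84, -0.76 and -0.99 at 2g, 1g-rot and 1g outside) and SdhD (-1.06, -0.58 and -1.03) fell with it.

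In complex III, which hands electrons to cytochrome c, 4 of 5 genes fell in each condition, and the medians were -0.66, -0.44 and -0.74 at 2g, 1g-rot and 1g outside. Cyt-c1, the haem subunit that meets cytochrome c, was at 11.76, 11.79, 11.82 and 11.91 in 20 d flies at 2g, against 12.56, 12.37, 12.47 and 12.60 in 5 d flies. It was at 11.92 and 12.06 in 20 d flies at 1g-rot, against 12.37 and 12.36 in 5 d flies. The ages did not overlap in any condition, and the differences were -0.68 ± 0.08, -0.38 ± 0.11 and -0.71 ± 0.11. The small subunits UQCR-14 (-0.66, -0.74 and -0.96) and UQCR-Q (-0.66, -0.44 and -0.78) fell likewise. UQCR-11 was at 5.38, 5.30, 5.37 and 5.60 at 20 d and 2g, against 5.53, 5.91, 5.80 and 5.67 at 5 d, where the ages overlapped. It did not pass the test, with differences of -0.32 ± 0.14, -0.32 ± 0.20 and -0.58 ± 0.20 and adjusted p of 0.159, 0.333 and 0.083.

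In complex IV, cytochrome c oxidase, 6, 5 and 6 of 7 genes fell at 2g, 1g-rot and 1g outside (medians -0.63, -0.58 and -0.79). COX5A, a nuclear-encoded subunit of its matrix side, stood at 12.03, 12.18, 11.98 and 12.07 at 20 d and 2g, against 12.78, 12.65, 12.87 and 12.89 at 5 d. Its falls of 0.73, 0.61 and 0.86 in the 3 conditions were close to those of COX8 (0.62, 0.66 and 0.79) and COX7C (0.58, 0.61 and 0.88). COX4 fell by 0.54 at 2g and 0.60 at 1g outside, and its difference at 1g-rot was -0.24 ± 0.11 (adjusted p = 0.174). COX7A stayed out of the pattern: its levels were 12.08, 12.13, 12.08 and 12.14 at 20 d and 2g, against 12.00, 11.99, 12.06 and 12.05 at 5 d. Its differences were 0.08 ± 0.07, 0.04 ± 0.10 and -0.08 ± 0.10 in the 3 conditions.

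All 10 genes of ATP synthase fell in every condition, with medians of -0.69 at 2g, -0.68 at 1g-rot and -1.0 at 1g outside. ATPsynbeta, the catalytic subunit, was at 12.93, 12.98, 12.81 and 12.94 at 20 d and 2g, against 13.64, 13.59, 13.65 and 13.73 at 5 d. Its differences were -0.74 ± 0.08 at 2g, -0.59 ± 0.11 at 1g-rot and -1.03 ± 0.11 at 1g outside. ATPsyngamma, the central stalk that turns inside the catalytic head (-0.89, -0.96 and -1.30), and ATPsynC, the subunit of the proton-driven ring (-0.99, -0.68 and -0.99), fell too. ATPsynB and ATPsynCF6, both parts of the peripheral stalk, fell by 0.72 and 0.62 at 2g, by 1.02 and 1.02 at 1g-rot, and by 1.46 and 1.30 at 1g outside.

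**Figure D3:**
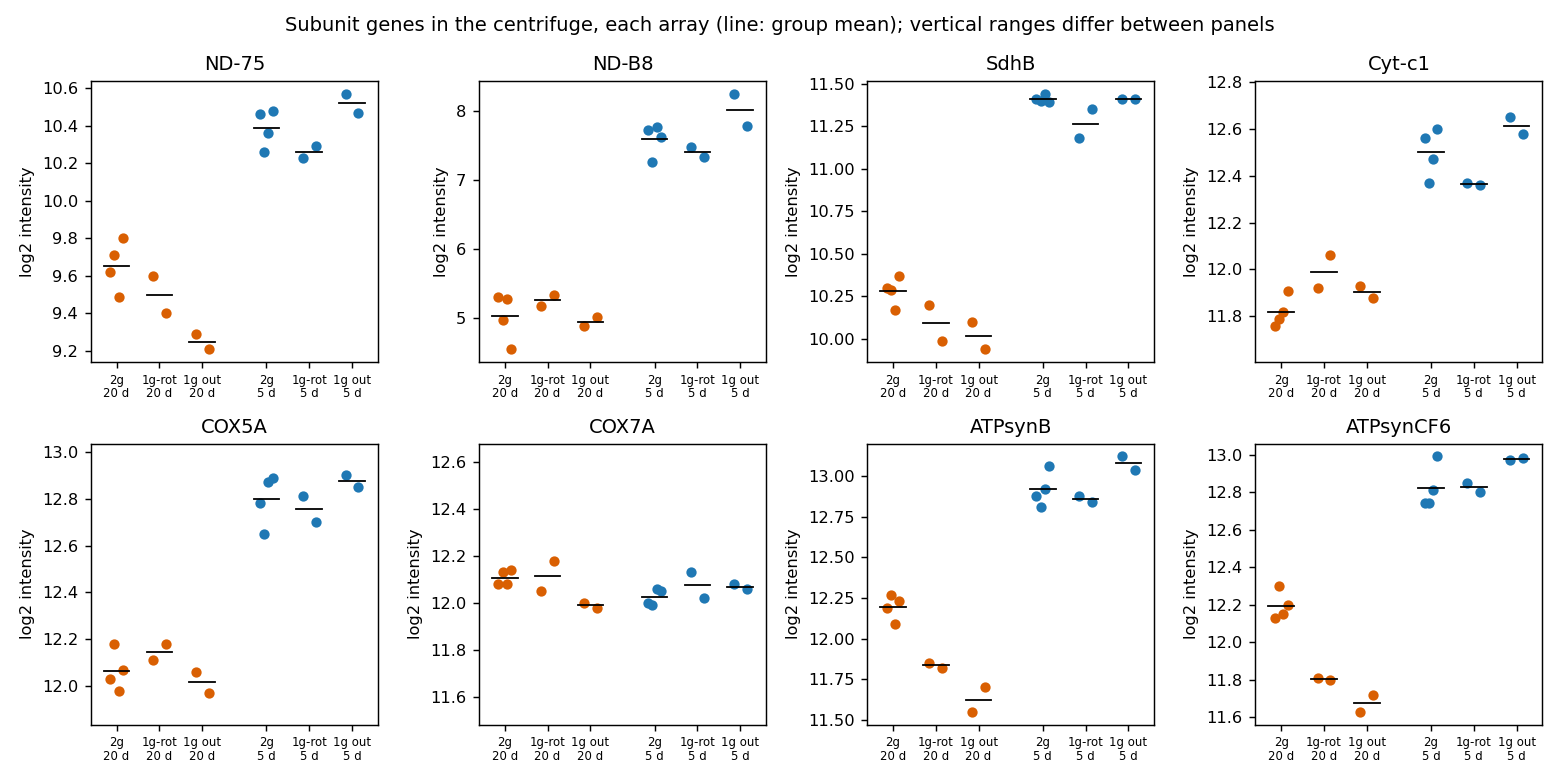
Log2 intensity of 8 subunit genes on each centrifuge array (points), 20 d groups (orange) left of 5 d groups (blue), with the group mean as a line and a vertical range that differs between panels. In 7 genes the ages stand apart, while COX7A lies between 11.98 and 12.18 on all 16 arrays; ATPsynB and ATPsynCF6 at 20 d are highest at 2g.

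The size of the fall went together across conditions. Across the 52 genes the age difference at 1g outside correlated with that at 2g at r = 0.90 and with that at 1g-rot at r = 0.94, or 0.76 and 0.89 without ND-B8. Between 2g and 1g-rot r was lowest, at 0.84, or 0.69 without ND-B8. These values run across genes, which are not independent of each other.

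Other parts of the mitochondrion were compared by the same fit. Of 6 respiratory subunits that go under other symbols (RFeSP, ox, levy, cype, blw and sun), 5 fell in each condition, with medians of -0.55, -0.45 and -0.70. Among carriers, the phosphate carrier gene Mpcp1 fell by 3.12 at 2g, 2.75 at 1g-rot and 3.34 at 1g outside, and sesB, the main ADP/ATP exchanger of the fly, by 0.82, 0.92 and 1.01, whereas Ant2, its neighbouring copy, rose by 0.58 at 2g and 0.80 at 1g-rot (0.52, adjusted p = 0.126, at 1g outside). Far fewer of the 69 mitochondrial ribosomal protein genes, which serve translation inside the organelle, were called: 1, 12 and 7 fell, and their medians were -0.01, -0.16 and -0.16. Of 12 assembly factors 2, 1 and 0 fell. Of the 21 paralogues left out by the rule COX7AL2 fell (-2.95, -2.69 and -2.98). The array medians of these 21 were 4.26 to 4.64 at 20 d and 4.37 to 4.50 at 5 d, close to background, so that a fall of most of them could not be seen here. Shares of lists were described and not tested against each other.

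Markers of other tissues moved with age as well. Of the 16 flight muscle and sarcomere genes, 16, 13 and 16 fell at 2g, 1g-rot and 1g outside, with medians of -1.13, -0.99 and -1.44, and the flight muscle genes fln and TpnC4 fell by 4.51 and 4.13 at 2g. The log2 sum of the 16 markers ran from 14.29 to 14.69 on the 20 d arrays and from 15.54 to 15.90 on the 5 d arrays. Of 11 female germline genes 9, 9 and 5 fell and 1 (grk) rose in each condition, and of 12 eggshell genes 0, 4 and 0 fell. Of 5 eye markers all fell at 2g (median -1.05), Arr1 and Arr2 rose at 1g-rot (0.68 and 1.12), and inaC fell at 1g outside (-0.80). Of 7 neuronal markers nSyb fell at 2g (-0.70). The part of these tissues in the fall of the subunit genes was not tested, and in whole flies fewer cells of a type and less RNA per cell cannot be told apart. RNA quality controls moved with age in some conditions. The eIF-4a difference between 3' and 5' probe sets was 0.62 and 0.67 at 20 d and 1g-rot, against 1.06 and 1.20 at 5 d, and 0.79 and 0.81 at 20 d and 1g outside, against 1.07 and 1.00 at 5 d. That of GAPDH was 1.39 and 1.31 at 20 d and 1g-rot, against 1.64 and 1.68 at 5 d, and overlapped between ages at 1g outside. At 2g both overlapped (0.99 to 1.26 at 20 d and 1.00 to 1.30 at 5 d for eIF-4a, 1.50 to 1.83 at 20 d and 1.45 to 1.77 at 5 d for GAPDH). Their part was not tested. The labels record no array run or scan, and a run that went with age cannot be told apart from age.

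The sex labels of the RPM series gave the other wide change. Flies labelled males, whose sex-limited transcripts were those of females, had less of most subunit transcripts than flies labelled females. At 1g outside 42 of the 52 genes were lower and none higher, and at 0g 38 were lower and 1 was higher. The median differences were -0.45 and -0.39, or 26.6% and 23.8% less. These counts stand against a large share of all probe sets, of which 22.7% were called lower and 29.8% higher at 1g, and 21.4% lower and 30.0% higher at 0g. The median difference of all probe sets was 0.06 at 1g and 0.13 at 0g, and against it the subunit genes stood at -0.50 and -0.52, with 51 of 52 below it in both.

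The level of this comparison depends on scaling. Array medians were 5.35 to 5.54 on arrays labelled males and 5.68 to 5.85 on arrays labelled females. Centring each array on its median put the median of all probe sets at 0.42 at 1g and 0.52 at 0g and that of the subunit genes at -0.08 and -0.003, with 10 genes called in each (7 lower and 3 higher at 1g, 6 lower and 4 higher at 0g). Centring adds a constant to every difference of a comparison, so that the position against all probe sets, -0.50 and -0.52, cannot move with it. Complex III was at -0.28 and -0.24 as deposited and at 0.08 and 0.15 after centring, and complex IV at 0g at -0.34 and 0.05. Differences between labels below are those of the deposited scaling. Each array also carries a letter, A to C where labelled females and E to H where labelled males, so letter and label cannot be told apart. At 0g, leaving out the 3 arrays with transcripts of both sexes leaves replicate 1 alone for flies labelled females. A count of genes called without them therefore cannot serve as a check of the label difference.

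ND-B8 again had the largest difference. It stood at 6.77, 7.07 and 7.26 in flies labelled males at 1g, against 8.77, 8.48 and 8.35 in flies labelled females, and at 7.18, 7.03, 7.02 and 7.02 in flies labelled males at 0g, against 8.17, 8.61 and 8.40 in flies labelled females. The labels did not overlap, and the differences were -1.50 ± 0.15 and -1.33 ± 0.14 (adjusted p = 1.11e-06 and 2.71e-06), or 2.83-fold and 2.52-fold lower. ND-75 differed by -0.86 ± 0.12 at 1g and -0.93 ± 0.11 at 0g, ND-B17.2 by -0.92 and -0.64, and ND-13A, another accessory subunit of complex I, by -0.76 and -0.65. In complex I 23 of 27 genes were lower at 1g and 22 at 0g.

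In complex III UQCR-Q stood out. Its levels were 9.66, 9.79 and 9.87 in flies labelled males at 1g, against 10.71, 10.64 and 10.67 in flies labelled females, a difference of -0.90 ± 0.09, and at 0g the difference was -0.74 ± 0.09. Cyt-c1 did not pass the test, at -0.15 ± 0.14 and -0.10 ± 0.13 (adjusted p = 0.421 and 0.542). In complex II all 3 genes were lower at 1g (SdhC -0.60, SdhD -0.58 and SdhB -0.44), and SdhB and SdhC at 0g. In complex IV COX7C (-0.64 at 1g and -0.74 at 0g) and COX5A (-0.60 and -0.45) led, and COX4 and COX7A passed in neither. In ATP synthase 8 genes were lower at 1g and 7 at 0g. ATPsynB was at 12.59, 12.71 and 12.81 in flies labelled males at 1g, against 13.27, 13.16 and 13.20 in flies labelled females, a difference of -0.51 ± 0.09, and ATPsynF differed by -0.52 and -0.49 and ATPsynbeta by -0.49 and -0.52 at 1g and 0g.

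The single gene higher in flies labelled males was ND-B12 at 0g. It was at 6.09, 5.81, 6.09 and 5.95 in these flies, against 5.78, 5.77 and 5.61 in flies labelled females, a difference of 0.26 ± 0.10 (adjusted p = 0.0377). At 1g its difference was 0.17 ± 0.11 (adjusted p = 0.199), and the 0g call was lost when any of several single arrays was left out. In all, under the deposited scaling, 36 genes were lower in both label comparisons, and 29 were lower in those and in the 3 age comparisons. At most 21.4% and 6.14% of all probe sets can have been lower in the same comparisons, and the shares that were were not counted. Centring each array kept 7 of the 42 label calls at 1g and 7 of the 39 at 0g. COX7A, ND-B12 and UQCR-11 were lower in none of the 5.

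Other mitochondrial genes differed between the labels in both directions. Among carriers Ant2 (-3.31 at 1g and -3.02 at 0g) and Mpcp1 (-1.01 and -1.05) were lower in flies labelled males, while porin, the channel of the outer membrane, was higher (0.59 and 0.53). The exchanger sesB differed by -0.10 and -0.11 and was not called. Of the 69 mitochondrial ribosomal protein genes 60 were higher in flies labelled males at 1g and 62 at 0g, with medians of 1.07 and 0.81. All 6 measured regulators of mitochondrial and respiratory genes were higher in both, among them Ets97D, a subunit of the fly counterpart of nuclear respiratory factor 2, and ewg, the fly relative of nuclear respiratory factor 1 (2.30 and 2.20 at 1g). Of 12 assembly factors 8 and 7 were higher and 2 lower in each, with Cox17 among the lower (-0.69 and -0.67). All 21 paralogues left out by the rule were lower in both, with medians of -3.79 and -3.50. Some of them were at background in flies labelled males, where a difference is only a lower bound on its size. COX7AL was at 3.54 to 3.70, below background, in flies labelled males at 1g and at 9.39 to 9.85 in flies labelled females. The testis genes ran the same way, with medians of 3.95 to 6.33 on arrays labelled males and 10.10 to 10.74 on arrays labelled females. Of the 6 respiratory subunits under other symbols, 5 were lower and 1 higher in both, with medians of -0.40 and -0.33. Of 16 muscle markers 9 and 8 were lower, with medians of -0.47 and -0.40, and their log2 sums were 15.46 to 16.06 in flies labelled males and 16.07 to 16.23 in flies labelled females. All 5 eye markers were lower in both (medians -1.03 and -0.90), as was nSyb (-1.28 and -1.16). The GAPDH difference between 3' and 5' probe sets was 1.47 to 1.70 on arrays labelled males and 1.13 to 1.42 on arrays labelled females, without overlap. That of eIF-4a was 1.17 to 1.18 on arrays labelled males and 0.82 to 1.04 on arrays labelled females at 1g, and overlapped at 0g. The part of these markers and controls in the result was not tested. With each array centred, the medians at 1g and 0g were 1.44 and 1.20 for the ribosomal proteins, -3.42 and -3.11 for the paralogues, -0.10 and -0.01 for the muscle markers and -0.03 and 0.06 for the subunits under other symbols.

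**Figure D4:**
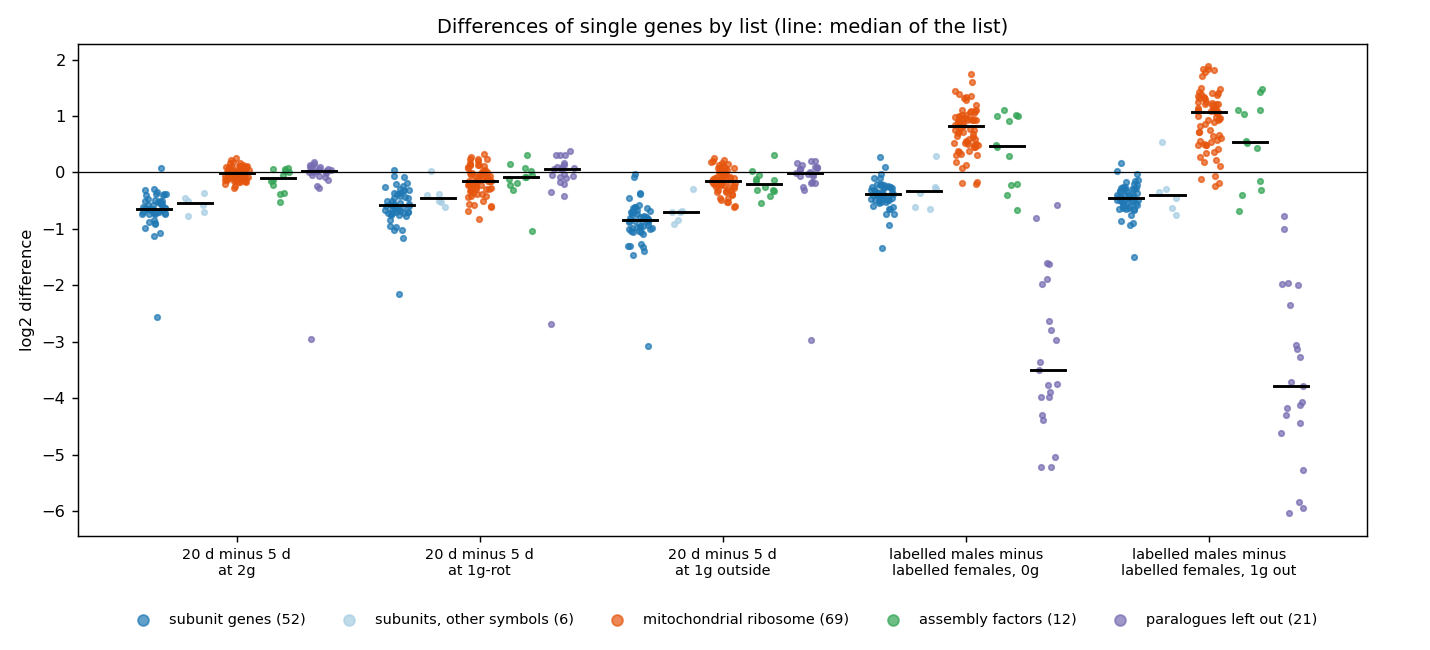
Log2 difference of each gene of 5 lists (points) with the list median as a line, for 20 d minus 5 d in the 3 centrifuge conditions and for flies labelled males minus flies labelled females at 0g and 1g in the RPM series. Against age the mitochondrial ribosome list lies near 0 (medians -0.01 to -0.16) while the subunit genes lie at -0.58 to -0.85; between labels the ribosome list lies above 0 (0.81 and 1.07) and the paralogues far below it (-3.50 and -3.79).

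The match of the 2 patterns over genes was loose. Across the 52 genes the age difference at 1g outside correlated with the label difference at 1g at r = 0.65, and at 0.43 without ND-B8. ATPsynC, ATPsyndelta, Cyt-c1 and ND-ACP fell with age in every condition but, on their brightest probe sets, passed in no label comparison. After repeated quantile normalization ATPsynC was called in both label comparisons.

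Altered gravity, the question of the series, moved few subunit genes past the test. In the centrifuge at 20 d, 38 of the 52 genes were higher in level at 2g than at 1g outside (median 0.10), beside 50.25% of all probe sets. An unadjusted p under 0.05 was found for 11 of the 52 and for 2010 of all 18769 probe sets. Past the test, 2 of the 52 genes were higher, both of the peripheral stalk of ATP synthase. Of all probe sets, 0.506% were called higher. ATPsynB was at 12.19, 12.27, 12.09 and 12.23 at 2g, against 11.55 and 11.70 at 1g outside, a difference of 0.57 ± 0.10 (adjusted p = 0.012), or 1.48-fold. ATPsynCF6 was at 12.13, 12.30, 12.15 and 12.20 at 2g, against 11.63 and 11.72 at 1g outside, a difference of 0.52 ± 0.10 (adjusted p = 0.019). All 4 arrays at 2g stood above both outside arrays for each gene. The 2g arrays carry the letters V, X, Y and Z and the outside arrays Q and R, so letter and 2g cannot be told apart. Both calls were lost (0 called) when either outside array was left out, when the spread was taken from the compared groups alone, and with a replicate block. In the same comparison 4 of 5 eye markers were lower (median -1.04), nSyb was lower (-0.95) and the muscle markers had a median of 0.15. The eIF-4a difference between 3' and 5' probe sets was 1.06, 1.06, 1.26 and 0.99 at 2g, against 0.79 and 0.81 at 1g outside. Their part was not tested.

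The other measured parts of the peripheral stalk did not pass: ATPsynD differed by 0.16 ± 0.10 and ATPsynO by -0.05 ± 0.09 (adjusted p = 0.639 and 0.915; these 2 were looked at after the values were seen). Against 1g-rot, which shares the 2g arrays, ATPsynCF6 differed by 0.39 ± 0.10 (adjusted p = 0.0526) and ATPsynB by 0.36 ± 0.10 (adjusted p = 0.0705). The 1g-rot arrays of 20 d were at 11.85 and 11.82 for ATPsynB and at 11.81 and 11.80 for ATPsynCF6, between 2g and 1g outside. The lowest difference against 1g-rot was that of SdhD, -0.43 ± 0.12 (adjusted p = 0.0776). In that comparison none of the 52 was called, beside 2.01% of all probe sets. An unadjusted p under 0.05 was found for 9 of the 52 and for 3043 of all 18769 probe sets. Between 1g-rot and 1g outside at 20 d none was called either (0.00533% of all probe sets called). There 1 of the 52 and 818 of all 18769 probe sets had an unadjusted p under 0.05.

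At 5 d none of the 52 genes was called in limma between 2g and 1g outside (2 at an unadjusted p under 0.05), between 2g and 1g-rot (0) or between 1g-rot and 1g outside (10). The shares of all probe sets called were 0.0586%, 0.165% and 0.0426%. Of all 18769 probe sets, 735, 1405 and 1222 had an unadjusted p under 0.05. The median differences were -0.13, 0.05 and -0.16. At 1g-rot 51 of the 52 genes lay lower in level than at 1g outside, beside 46.3% of all probe sets not higher, with 2 arrays in each group. The smallest p at 1g-rot against 1g outside was that of ND-39, a subunit of complex I, which was at 11.53 and 11.58 at 1g-rot, against 12.04 and 11.93 at 1g outside (-0.43 ± 0.14, adjusted p = 0.634). The difference between the effect of 2g against 1g outside at 20 d and at 5 d was tested too. It was positive for 47 of 52 genes, with a median of 0.24, beside 50.2% of all probe sets. No gene was called (0.0586% of all probe sets called). An unadjusted p under 0.05 was found for 15 of the 52 and for 1424 of all 18769 probe sets. ATPsynB had the smallest p, at 0.73 ± 0.14 (adjusted p = 0.0701). That fit and the comparisons at each age share their arrays.

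**Figure D5:**
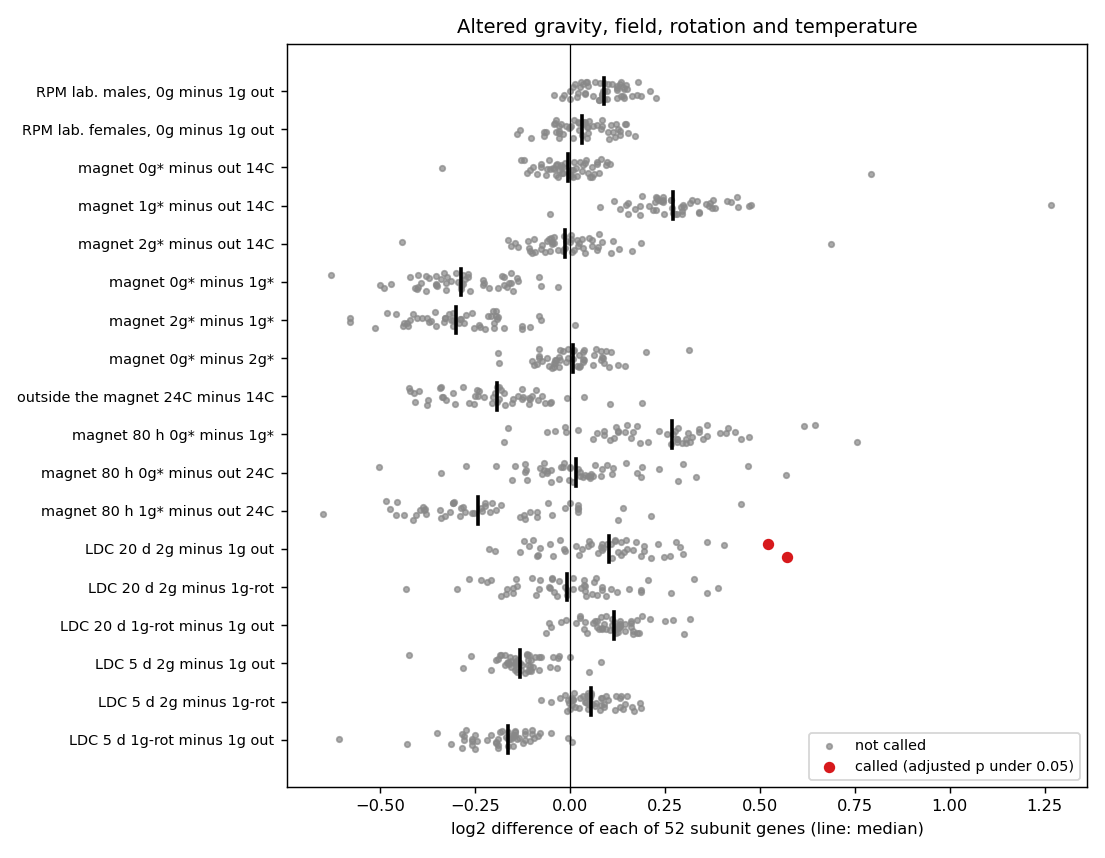
Log2 difference of each of the 52 subunit genes (points) in 18 comparisons of gravity, field, rotation and temperature, with the median as a line; red points are called at an adjusted p under 0.05. The called genes are ATPsynB (0.57) and ATPsynCF6 (0.52) at 2g against 1g outside at 20 d, and the medians lie between -0.30 and 0.27.

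In the magnet none of the 52 genes was called, though 1g* stood apart in level. Against outside at 14C the median differences were -0.01 at 0g*, 0.27 at 1g* and -0.02 at 2g*, with 1, 5 and 1 genes at an unadjusted p under 0.05. The shares of all probe sets called were 0%, 0.0266% and 0%. Of all 18769 probe sets, 571, 3486 and 802 had an unadjusted p under 0.05. Array medians of the subunit genes were 11.96, 11.65 and 11.74 at 1g*, against 11.23 and 11.60 outside at 14C. Set against 1g*, 0g* was lower for all 52 genes (median -0.29) and 2g* for 51 (median -0.30). Of all probe sets, 56.35% and 50.25% were not higher. The shares of all probe sets called were 0.0213% and 0%. An unadjusted p under 0.05 was found for 11 and 13 of the 52, beside 4317 and 2684 of all 18769 probe sets. Between 0g* and 2g* the median was 0.01, with 0 genes at an unadjusted p under 0.05 and 0% of probe sets called. Of all 18769 probe sets, 700 had an unadjusted p under 0.05 there.

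SdhB had the smallest p between 0g* and 1g*. It was at 11.10, 10.75 and 10.92 at 0g*, against 11.73, 11.39 and 11.54 at 1g*, without overlap (-0.63 ± 0.19, adjusted p = 0.129). SdhD led between 2g* and 1g*, at 10.96, 10.83 and 10.78 at 2g*, against 11.66, 11.24 and 11.41 at 1g* (-0.58 ± 0.19, adjusted p = 0.32). UQCR-11 was at 7.62, 6.95 and 7.38 at 1g*, against 6.17 and 5.93 outside at 14C (1.27 ± 0.24, adjusted p = 0.133), and at 7.16, 6.54 and 6.83 at 0g* and 6.80, 6.56 and 6.85 at 2g*. Every array inside the field was above both outside arrays for this gene. Outside at 24C, UQCR-11 was at 5.90, 6.60 and 6.22, and when the array whose labels disagree on temperature was moved to the 14C group, UQCR-11 was called at 1g*.

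Tissue markers also differed in level at 1g*, without passing the test. Against outside at 14C all 16 muscle markers were higher (median 0.60) and all 12 eggshell genes lower (median -3.48). Eggshell medians were 6.83, 11.84 and 6.88 on the 1g* arrays, against 12.00 and 12.48 outside at 14C. Accessory gland medians were 8.15, 3.72 and 3.82 on the 1g* arrays, against 3.67 and 3.91 outside at 14C, so that 1 array, with transcripts of both sexes, stood clear of background. The muscle medians were 11.94, 11.42 and 11.61 on the 1g* arrays, against 10.88 and 11.24 outside at 14C. Without 1g* replicate 2, UQCR-11 was called against outside and SdhB was called between 0g* and 1g*. The part of the tissue markers in these differences was not tested.

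Temperature was compared outside the field. At 24C the subunit genes had a median difference of -0.19 against 14C. In level 49 of 52 were lower, beside 48.47% of all probe sets not higher. None was called (0.480% of all probe sets called). An unadjusted p under 0.05 was found for 3 of the 52 and for 1444 of all 18769 probe sets. ATPsynbeta had the smallest p: it was at 12.95, 13.39 and 12.97 at 24C, against 13.40 and 13.65 at 14C (-0.42 ± 0.16, adjusted p = 0.545). Muscle medians were 9.80, 11.32 and 10.30 at 24C, against 10.88 and 11.24 at 14C. Eye medians were 5.53, 5.60 and 5.66 at 24C, against 7.76 and 8.26 at 14C, and the 5 eye markers had a median difference of -2.67. Their part was not tested.

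In the 80 h magnet runs none of the genes was called in 3 comparisons. Between 0g* and 1g* the median difference was 0.27 and 46 of 52 genes were higher in level, beside 55.88% of all probe sets (0.00533% of all probe sets called). An unadjusted p under 0.05 was found for 8 of the 52 and for 1299 of all 18769 probe sets. COX7C was at 11.95 and 11.74 at 0g*, against 11.09 and 11.31 at 1g* (0.64 ± 0.19, adjusted p = 0.656). Against outside at 24C, which also differs in temperature, the medians were 0.02 at 0g* and -0.24 at 1g* (0.927% and 1.01% of all probe sets called). An unadjusted p under 0.05 was found for 2 and 14 of the 52, beside 2092 and 2667 of all 18769 probe sets. ND-MNLL, a small subunit of complex I, was at 10.66 and 10.19 at 0g* and 10.30 and 10.26 at 1g*, against 10.86, 10.83 and 11.10 outside (-0.50 ± 0.16 and -0.65 ± 0.16, adjusted p = 0.276 and 0.116). ND-ASHI was at 10.67 and 11.60 at 0g*, against 10.48, 10.55 and 10.67 outside, so that 1 array carried its difference of 0.57 ± 0.23. These arrays are those with the wide 3' to 5' differences, and 1g* replicate 1 is among the arrays with transcripts of both sexes; their part was not tested.

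In the RPM no subunit gene was called between 0g and 1g outside in flies labelled males (median 0.09, 0.00533% of all probe sets called) or labelled females (median 0.03, 0% called), and 0 had an unadjusted p under 0.05 in either. The difference of the 2 effects had a median of 0.06, with 0 genes at an unadjusted p under 0.05 and 0% of all probe sets called. Of all 18769 probe sets, 1077 had an unadjusted p under 0.05 in flies labelled males and 1219 in flies labelled females. For the difference of the 2 effects 1856 did. The SE of a single gene was 0.08 to 0.18 in flies labelled females and 0.08 to 0.17 in flies labelled males. The smallest p belonged to COX5A in flies labelled males, at 12.66, 12.64, 12.45 and 12.34 at 0g, against 12.16, 12.36 and 12.49 at 1g (0.19 ± 0.11, adjusted p = 0.781), and to ATPsynB in flies labelled females, at 13.32, 13.40 and 13.34 at 0g, against 13.27, 13.16 and 13.20 at 1g (0.14 ± 0.09, adjusted p = 0.834).

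For 6 genes the array held 8 further probe sets. Over the 5 age and label comparisons and the centrifuge comparison of 2g with 1g outside at 20 d, they had the sign of the brightest probe set in 39 of 48 pairs. The other probe set of ATPsynbeta fell with age (-0.69 ± 0.11 at 2g) like the brightest, but differed by 0.25 ± 0.11 and 0.22 ± 0.10 between labels at 1g and 0g (adjusted p = 0.0621 and 0.0802), where the brightest differed by -0.49 and -0.52. That of ATPsyngamma (mean 12.23, beside 12.27 for the brightest) also fell with age (-0.84 ± 0.11 at 2g). Between labels it differed by -0.03 ± 0.14 and -0.13 ± 0.13 (adjusted p = 0.883 and 0.397), where the brightest differed by -0.44 and -0.50 and was called. With the mean over probe sets, the 1g label calls of ATPsynbeta, ATPsyngamma and COX7B were lost, and at 0g that of ATPsynbeta. The dimmer probe set of COX7C had a mean of 4.21 over all arrays, near background. Between labels it differed by -4.99 ± 0.25 at 1g and -4.78 ± 0.23 at 0g (adjusted p = 2.93e-09 and 2.83e-09). The brightest differed by -0.64 and -0.74. Where levels lie at background, such a difference is only a lower bound on its size. ND-ACP, the mitochondrial acyl carrier protein, did not pass between labels on its brightest probe set (-0.04 and -0.09) but did on another one (-0.42 and -0.52). A further probe set of ND-ACP was higher at 2g than at 1g outside at 20 d (0.47 ± 0.09, adjusted p = 0.028), where the brightest differed by 0.12 ± 0.10 (adjusted p = 0.73). The brightest probe sets of 11 of the 52 genes carry a suffix for probes shared between transcripts, so the values of those genes may mix them.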

How the data were processed

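The authors deposited log2 expression values of 50 Affymetrix Drosophila 2.0 arrays (18952 probe sets), for which 4 ug of total RNA per sample was used. The submitters' processing notes name RMA, which corrects background, normalizes between arrays and summarises probes, and limma, with versions not given in the sources used here. Values were used as deposited. Probe sets were named through the platform annotation, which pairs 13647 with 1 gene symbol, 402 with several and 4720 with none, and 13544 of the single-symbol probe sets matched a RefSeq gene. After 183 Affymetrix controls were left out, group means were compared over 18769 probe sets with limma 3.58.1 in R 4.3.3 (lmFit, contrasts, eBayes, two-sided, Benjamini-Hochberg), with 1 fit per facility (RPM, magnet, magnet 80 h runs, LDC) and no covariate. The script was tested on simulated data. No 2 arrays held the same values (highest correlation 0.9963). An array was held to carry transcripts of both sexes where the yolk genes had a median over 7 and the accessory gland genes one over 5. Single genes were named for the largest called differences of each complex, the smallest p where none was called, the widest and narrowest ranges and the lowest likeness to the other subunits, beside fixed subunits (ND-75, SdhB, Cyt-c1, COX4, COX5A, COX8, ATPsynbeta and ATPsynC). The subunit genes and the lists were chosen with earlier results of these data known. The alternatives were centring each array, quantile normalization, leaving out dim probe sets, means over probe sets, the spread of the compared arrays only, a replicate block, an array-letter block, leaving out arrays with transcripts of both sexes, moving the 24C array, and leaving out each array in turn. An array has no count of reads, so the number of arrays limits the precision.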

Additional observations from a re-analysis of the deposited data

Results flagged for a closer look

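In the groups of 4 arrays, 69 sets of values, those of 17 subunit genes and of medians over genes, were looked at for an array far from the others. Chance gives such an array in about 1 in 20 sets, and 3 were found. In flies labelled males at 0g in the RPM, ND-B8 was at 7.18 on replicate 1, an array with transcripts of both sexes, and at 7.03, 7.02 and 7.02 on the others. In 5 d flies at 2g in the centrifuge, COX8 was at 12.74 on replicate 2, below 12.97, 12.96 and 12.97 on the others. In 20 d flies at 2g, ND-B16.6 was at 10.79 on replicate 4, above 10.58, 10.59 and 10.61. The age difference of ND-B16.6 at 2g was -0.38 ± 0.09.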

How the results depend on the processing

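Leaving out 1 array at a time gave 48 to 50 age calls at 2g and 46 to 47 at 1g outside. At 1g-rot it gave 30 to 37 (30 without replicate 1 of 20 d), and the spread of the compared arrays alone gave 21. The label counts depended on scaling. Centring each array on its median gave 10 genes at 1g and 10 at 0g, with COX8 at 0.035 and Cyt-c1 at 0.29 at 0g, opposite in sign to the deposited scaling, while repeated quantile normalization gave 33 and 31. Leaving out arrays with transcripts of both sexes gave 25 at 0g, and leaving out 1 array at a time gave 32 to 40 at 1g and 28 to 44 at 0g. For 2g against 1g outside at 20 d, 0 genes were called with the compared arrays alone and 0 with a replicate block, and 0 to 2 when 1 array was left out. Against 1g-rot, 1 gene (ATPsynCF6) was called after centring and 1 with dim probe sets left out. In the magnet, moving the 24C array to the 14C group gave 1 call at 1g* against outside. Leaving out 1 array gave 0 to 1 there, 0 to 1 between 0g* and 1g*, and 0 to 1 at 0g* against outside in the 80 h runs. In other results the count stayed within 1.5 times, in 331 of 345 alternatives in all. Most comparisons had 0 genes called in the main fit, and 0 against 0 was taken as unchanged. The 331 therefore says little about the comparisons that had calls. The cause of these changes was not tested. Same-numbered arrays had a correlation of deviations over 0.1 in 4 of 18 pairs in the RPM, 9 of 26 in the magnet, 0 of 6 in the 80 h runs and 13 of 32 in the LDC, and LDC arrays of the same letter in 9 of 16. The median for LDC arrays of the same letter was 0.13, against -0.02 for other letters. In the RPM, the magnet and the 80 h runs the same-letter medians were -0.03, -0.08 and 0.02. Arrays were not treated as pairs in the main fit, and these counts do not test for pairing. In the LDC a replicate number joins arrays of unlike letters. The replicate block gave 41 and 29 genes for labels at 1g and 0g and 50, 40 and 48 for age at 2g, 1g-rot and 1g outside. A block by array letter kept the 49, 40 and 47 age calls of the main fit at 2g, 1g-rot and 1g outside. It could not be fitted for 6 comparisons whose groups share no letter. These were the labels at 1g and at 0g, and 2g against 1g-rot or 1g outside at each age. Probes near background and the number of arrays limit what could be called.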
